A study of Mus musculus with 9 samples.

Results

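RAS proteins are small membrane-bound GTPases that switch cells between a resting and a signaling state. Here, 9 genes of this switch were measured in pre-malignant and leukemic clones from mice. They are the GTPases *Nras*, *Hras* and *Rras2*, the GTPase-activating proteins *Nf1*, *Rasa1* and *Rasa2*, and the positive or negative regulators *Sos1*, *Ptpn11* and *Cbl*. The 9 genes were chosen by name, as 3 RAS proteins and 6 of their regulators, among 55401 annotated genes. A RAS protein is active while it holds GTP. Exchange factors such as SOS1 load it with GTP, and GTPase-activating proteins such as neurofibromin, the product of *Nf1*, make it hydrolyze GTP and so shut it off. Growth factor and cytokine receptors of myeloid progenitors feed into this switch, and mutations of several of these genes are common in human myeloid leukemia.

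RNA-Seq had been performed on 9 libraries, 3 per group, of mouse splenocytes sorted as CD45.1+EGFRt bright cKit+CD11b dim or negative cells of a single color code. All 9 libraries came from H9M cells, that is, C57BL/6-Ly5.1 lineage-negative bone marrow transduced with a retroviral *Meis1*-2A-*Hoxa9* vector, and carried a lentiviral FGB-D color-code vector with the surface marker EGFRt. Single-cell-derived clones of these cells were mixed and transplanted together with helper bone marrow into lethally irradiated C57Bl6/J recipients, so the host keeps its own non-leukemic cells and the sort has to remove them. The 3 pre-malignant libraries came from mouse #15, analyzed before the other mice reached their leukemic endpoint, and hold 1 clone each with the color codes 33BC-D, 38BC-D or 43BC-D. In the de novo expanded group, these clones were sorted at the endpoint from mice #17, #13 and #14, respectively. The 3 stably expanded libraries are all clone 34BC-D, sorted from the same endpoint mice. Mouse and time therefore cannot be told apart from the difference between pre-malignant and leukemic cells, and the stably expanded group represents 1 clone. That clone has no pre-malignant library. The ages and sex of the mice are not given in the sources used here. The labels tie each data column to its group but not to a clone or mouse, so libraries are numbered within a group and the numbers carry no further meaning. P-values measure the spread among 3 clones of 1 mouse, 3 clones of 3 mice, or 1 clone in 3 mice, respectively.

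The libraries held between 10379739 and 15551196 reads on genes, with stably expanded library 3 the shallowest. Values are normalized read counts, that is, reads divided by a size factor per library. *Ptprc*, which encodes the leukocyte marker CD45, had normalized read counts of 4238 to 5216 in the 9 libraries, and *Kit* had 1937 to 3979. The retrovirally delivered *Hoxa9* and *Meis1* had at least 4311 and 7314. *Itgam*, which encodes CD11b, had 553 to 691 in pre-malignant, 379 to 804 in de novo expanded and 777 to 1188 in stably expanded libraries. In the same order of groups, *Mpo* had 85054 to 95650, 22355 to 218137 and 101104 to 123617. *Flt3* had 1117 to 1514, 1013 to 4006 and 553 to 1345, and *Cd34* had 1216 to 1860, 644 to 2219 and 761 to 1107. The part of these differences in the results below was not tested. Sums of markers of other cell types differed between the groups. The 7 B cell genes summed to 262 to 391 in pre-malignant, 131 to 213 in de novo expanded libraries, and 174 to 286 with the stably expanded clone, and the 8 erythroid genes to 257 to 487, 31.6 to 201 and 32.2 to 325, in the same order of groups. The 7 T cell genes summed to 16.3 to 56.8. The 8 macrophage genes summed to 1257 to 2615 in pre-malignant, 850.2 to 3364 in de novo expanded libraries, and 2439 to 3198 with the stably expanded clone. Most of this sum was *Adgre1*, at 713 to 1354, and *Vcam1*, at 168 to 1389, 16.0 to 2303 and 1078 to 1956 in the same order of groups, while *C1qa* stayed at or under 5.23. The 6 platelet genes summed to 836 to 894, 416 to 900.5 and 502 to 735, mostly *Itgb3*, with *Ppbp* and *Gp1bb* at 0 throughout, so that pre-malignant libraries and the stably expanded clone did not overlap. Reads on olfactory and vomeronasal receptor genes, which myeloid cells are not known to use, made up 0.00833 to 0.0186% of reads in pre-malignant, 0.00385 to 0.0121% in de novo expanded libraries, and 0.00219 to 0.00813% with the stably expanded clone.

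The 3 RAS genes differed more than 100-fold in level, and the regulators at both ends of the variability range were *Sos1* and *Rasa2*. The promoters of *Hras*, *Rras2*, *Rasa2* and *Sos1* are shown so that these contrasts can be read beside the sequence. Each stretch spans 250 bases before to 50 bases after the RefSeq transcript start in GRCm38.p6, read 5′ to 3′ along the gene. Reads were counted on GENCODE genes. Their start minus the RefSeq start was -114 bases for *Rasa2*, -199 for *Nf1* and 356 for *Rasa1*, and -3 to 0 for the other genes. Capitals mark the GC box, the letters GGGCGG or, on the other strand, CCGCCC.
*Hras*, chr7:141193955-141194254, minus strand: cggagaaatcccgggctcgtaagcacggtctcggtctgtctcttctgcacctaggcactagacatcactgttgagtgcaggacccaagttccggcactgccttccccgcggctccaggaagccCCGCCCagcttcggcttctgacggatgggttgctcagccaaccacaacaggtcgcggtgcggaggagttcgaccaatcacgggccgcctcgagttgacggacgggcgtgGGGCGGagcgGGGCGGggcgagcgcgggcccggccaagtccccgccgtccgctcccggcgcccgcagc
*Rras2*, chr7:114117732-114118031, minus strand: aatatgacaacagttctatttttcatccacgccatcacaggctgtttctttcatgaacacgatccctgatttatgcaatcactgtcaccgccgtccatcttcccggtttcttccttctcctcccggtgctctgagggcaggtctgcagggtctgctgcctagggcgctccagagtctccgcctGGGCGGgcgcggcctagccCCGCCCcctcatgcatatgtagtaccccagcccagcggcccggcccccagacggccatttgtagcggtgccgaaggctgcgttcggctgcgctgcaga
*Rasa2*, chr9:96631454-96631753, minus strand: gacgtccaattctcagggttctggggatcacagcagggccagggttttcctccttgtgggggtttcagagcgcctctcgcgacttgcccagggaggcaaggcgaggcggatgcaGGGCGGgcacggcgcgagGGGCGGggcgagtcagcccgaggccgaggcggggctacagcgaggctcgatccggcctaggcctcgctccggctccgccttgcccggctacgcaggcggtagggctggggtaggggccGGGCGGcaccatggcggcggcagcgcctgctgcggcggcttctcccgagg
*Sos1*, chr17:80480404-80480703, minus strand: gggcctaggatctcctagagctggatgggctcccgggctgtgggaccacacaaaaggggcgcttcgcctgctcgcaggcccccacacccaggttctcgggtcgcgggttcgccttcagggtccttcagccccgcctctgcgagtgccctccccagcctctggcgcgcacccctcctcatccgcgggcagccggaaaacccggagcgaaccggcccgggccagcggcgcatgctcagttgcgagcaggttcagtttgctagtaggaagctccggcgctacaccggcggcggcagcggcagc
The GC box occurred in the windows of 8 of the 9 genes, all except *Sos1*, against 35.7% of the 32851 RefSeq promoters of this length. It occurred 3 times at *Nras*, *Hras* and *Rasa2* and 2 times at *Rras2*. The windows of the 9 genes held 19 to 43 CpG dinucleotides, with a median of 30 against 7 over all promoters. *Nras* had the fewest and *Cbl* the most. The barely detected *Rras2* had 20 CpGs, close to *Nras*. These letters describe the windows and do not identify a bound factor.

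The levels of the 9 genes spanned a wide range, which was compared per length as RPKM, reads per kilobase of merged exons scaled to the depth of each library. *Cbl*, a ubiquitin ligase that marks activated receptor tyrosine kinases for degradation, was highest, at 31.5 ± 2.83 RPKM (SD, n = 9). *Ptpn11*, which encodes the phosphatase SHP2 that promotes RAS activation downstream of receptors, followed at 20.5 ± 2.02 RPKM. *Nras*, *Rasa1* and *Hras* lay close together, at 9.97 ± 0.991, 9.89 ± 0.888 and 8.31 ± 1.46 RPKM. *Sos1* reached 6.01 ± 0.368 RPKM and *Nf1* 4.76 ± 0.562 RPKM. *Rasa2* reached 1.39 ± 0.476 RPKM and *Rras2* 0.0773 ± 0.0745 RPKM. In this order, every *Cbl* value lay above every *Ptpn11* value, every *Ptpn11* value above every *Nras* value, every *Nf1* value above every *Rasa2* value, and every *Rasa2* value above every *Rras2* value. The neighbors *Nras* and *Rasa1*, *Rasa1* and *Hras*, *Hras* and *Sos1*, and *Sos1* and *Nf1* overlapped in their ranges over the 9 libraries.

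**Figure D1:**
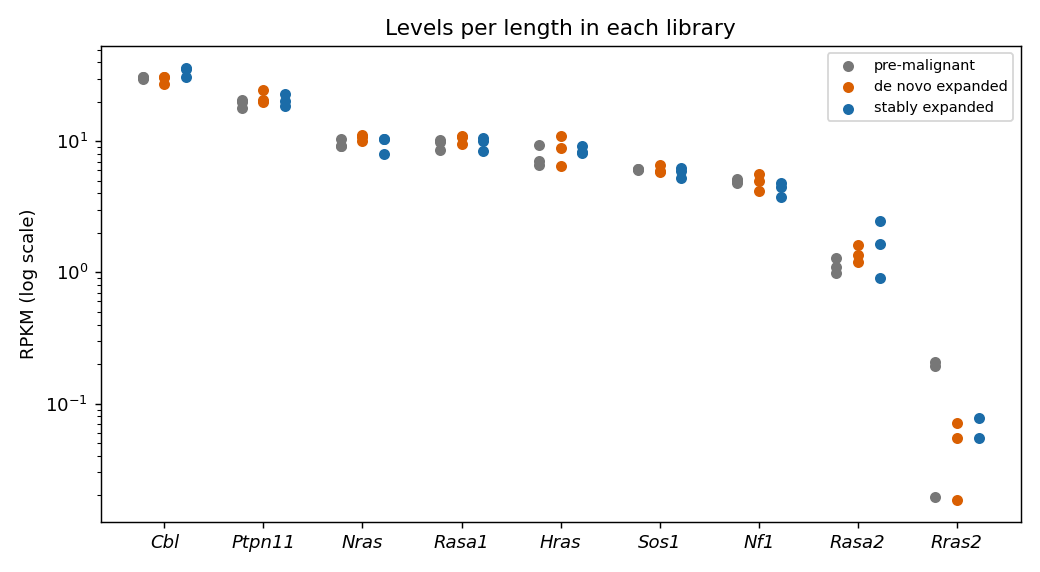
Level of each of the 9 genes per length (RPKM, log scale) in every library, colored by group, with genes ordered by their mean. *Cbl* and *Ptpn11* lie above the other genes and *Rras2* below them in all groups. The stably expanded library without an *Rras2* read cannot be drawn on a log axis.

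*Nras*, the RAS gene most often mutated in myeloid leukemia, had similar levels in the 3 groups. Its normalized read counts, here and below scaled over all 9 libraries, were 771, 668 and 669 in pre-malignant libraries, 787, 812 and 743 in de novo expanded libraries, and 768, 737 and 596 in stably expanded libraries. The de novo expanded libraries were among the higher ones and stably expanded library 3 was the lowest, but all 3 groups overlapped. Against the pre-malignant group, the log2 fold change was 0.17 ± 0.11 (SE) in de novo expanded clones, with a 95% interval of -0.09 to 0.44, and -0.01 ± 0.13 in the stably expanded clone, with an interval of -0.30 to 0.28. The adjusted p-values of limma's test were 0.574 and 0.977. Fold changes are on the log2(normalized read count + 1) scale throughout. In bulk RNA, fewer cells of a type and less RNA per cell cannot be told apart.

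*Hras*, a ubiquitously used RAS gene, varied more between libraries of 1 group than between groups. It had 343, 360.1 and 475 normalized reads in pre-malignant, 561, 445 and 331 in de novo expanded libraries, while the stably expanded clone had 428, 456 and 423. Both the highest and the lowest value belonged to de novo expanded clones, and the 3 stably expanded libraries were the most alike. The log2 fold change against pre-malignant clones was 0.19 ± 0.22 (interval -0.34 to 0.71, adjusted p = 0.790) in de novo and 0.17 ± 0.15 (interval -0.17 to 0.50, adjusted p = 0.527) with the stably expanded clone by limma. *Nras* made up 49.1 to 61.1% of the summed RPKM of the 3 RAS genes. The ratio of *Nras* to *Hras* per length, which does not depend on the scaling of a library, was 1.29 ± 0.295 in pre-malignant, 1.28 ± 0.294 in de novo expanded libraries, and 1.13 ± 0.135 with the stably expanded clone (SD, n = 3), and the 3 ranges overlapped.

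*Rras2*, which encodes the RAS-related protein TC21, was close to undetected. It had 9, 1 and 11 reads in pre-malignant libraries, 3, 3 and 1 in de novo expanded libraries, and 3, 4 and 0 in stably expanded libraries, where a count of 0 allows up to 3 reads. The 2 highest values were both pre-malignant, but the remaining pre-malignant library had a single read, so the groups overlapped. It did not pass the filter of a mean normalized read count of 10 and was not tested. With no filter on low values, limma gave adjusted p-values of 0.741 and 0.589 against the pre-malignant group. This depth could not show whether *Rras2* differed between the groups.

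Of the 3 GTPase-activating proteins, *Nf1* was lower in the stably expanded clone by less than the test could resolve. Its normalized read counts were 1092, 1030.0 and 1124 in pre-malignant, 1079, 1218 and 912 in de novo expanded libraries, while the stably expanded clone had 826, 1018 and 994. All 3 stably expanded values lay below all 3 pre-malignant values, while the de novo expanded values spanned both. The log2 fold change of the stably expanded clone was -0.20 ± 0.11, with an interval of -0.45 to 0.05 and an adjusted p of 0.303 by limma. That of de novo expanded clones was -0.01 ± 0.13, with an interval of -0.30 to 0.29.

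*Rasa1*, which encodes p120 RasGAP, was steady. It had 1002, 1008 and 862 normalized reads in pre-malignant, 1104, 1066 and 966 in de novo expanded libraries, while the stably expanded clone had 861, 979.7 and 1078. The groups overlapped, with log2 fold changes against pre-malignant clones of 0.15 ± 0.11 and 0.02 ± 0.12 and limma adjusted p-values of 0.642 and 0.932.

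*Rasa2*, a related GTPase-activating protein that acts at the plasma membrane, was the most variable of the 8 tested genes. Its normalized read counts were 283, 212 and 237 in pre-malignant, 292, 347 and 263 in de novo expanded libraries, while the stably expanded clone had 359, 524 and 199. The stably expanded clone thus held both the highest and the lowest value of the series, 2.64-fold apart, within 1 clone taken from 3 mice. The SD of log2 values was 0.70 among stably expanded, 0.21 among pre-malignant and 0.20 among de novo expanded libraries. The log2 fold change against pre-malignant clones was 0.32 ± 0.18 (interval -0.10 to 0.74, adjusted p = 0.533) in de novo and 0.46 ± 0.29 (interval -0.18 to 1.11, adjusted p = 0.351) with the stably expanded clone by limma. Without stably expanded library 3, the shallowest library, the latter was 0.84 with an adjusted p of 0.0416, below the 2-fold limit, and without stably expanded library 2 it was 0.14. Counting error alone would give *Rasa2* an SD of 0.08 on the log2 scale, against 0.43 measured over the 9 libraries, and the part of depth in this spread was not tested.

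The exchange factor *Sos1* was the least variable of the genes. It had 902, 870.0 and 895 normalized reads in pre-malignant, 956, 829.9 and 868 in de novo expanded libraries, while the stably expanded clone had 775, 835 and 925. The pre-malignant libraries lay within the range of both leukemic groups. The log2 fold changes were 0.01 ± 0.10 and -0.08 ± 0.11, and their 95% intervals ran from -0.23 to 0.25 and from -0.31 to 0.16.

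*Ptpn11* was measured at 1869, 2009.8 and 2103 normalized reads in pre-malignant, 2515, 2077 and 2068 in de novo expanded libraries, while the stably expanded clone had 2359, 2048 and 1933. The highest value in each leukemic group exceeded all pre-malignant values, but the other leukemic values lay within the pre-malignant range. The log2 fold changes were 0.17 ± 0.11 and 0.08 ± 0.10, with limma adjusted p-values of 0.577 and 0.658.

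*Cbl* was the gene with the highest read counts and the most even pre-malignant values. It had 5101, 5159 and 5177 normalized reads in pre-malignant, 4618, 5163 and 5307 in de novo expanded libraries, while the stably expanded clone had 6107, 6028 and 5275. All stably expanded values lay above all pre-malignant values, whereas de novo expanded values overlapped with both groups. The log2 fold change of the stably expanded clone was 0.17 ± 0.09 against pre-malignant clones (interval -0.02 to 0.37, adjusted p = 0.253) and 0.21 ± 0.11 against de novo expanded clones (interval -0.04 to 0.45, adjusted p = 0.891) by limma.

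**Figure D2:**
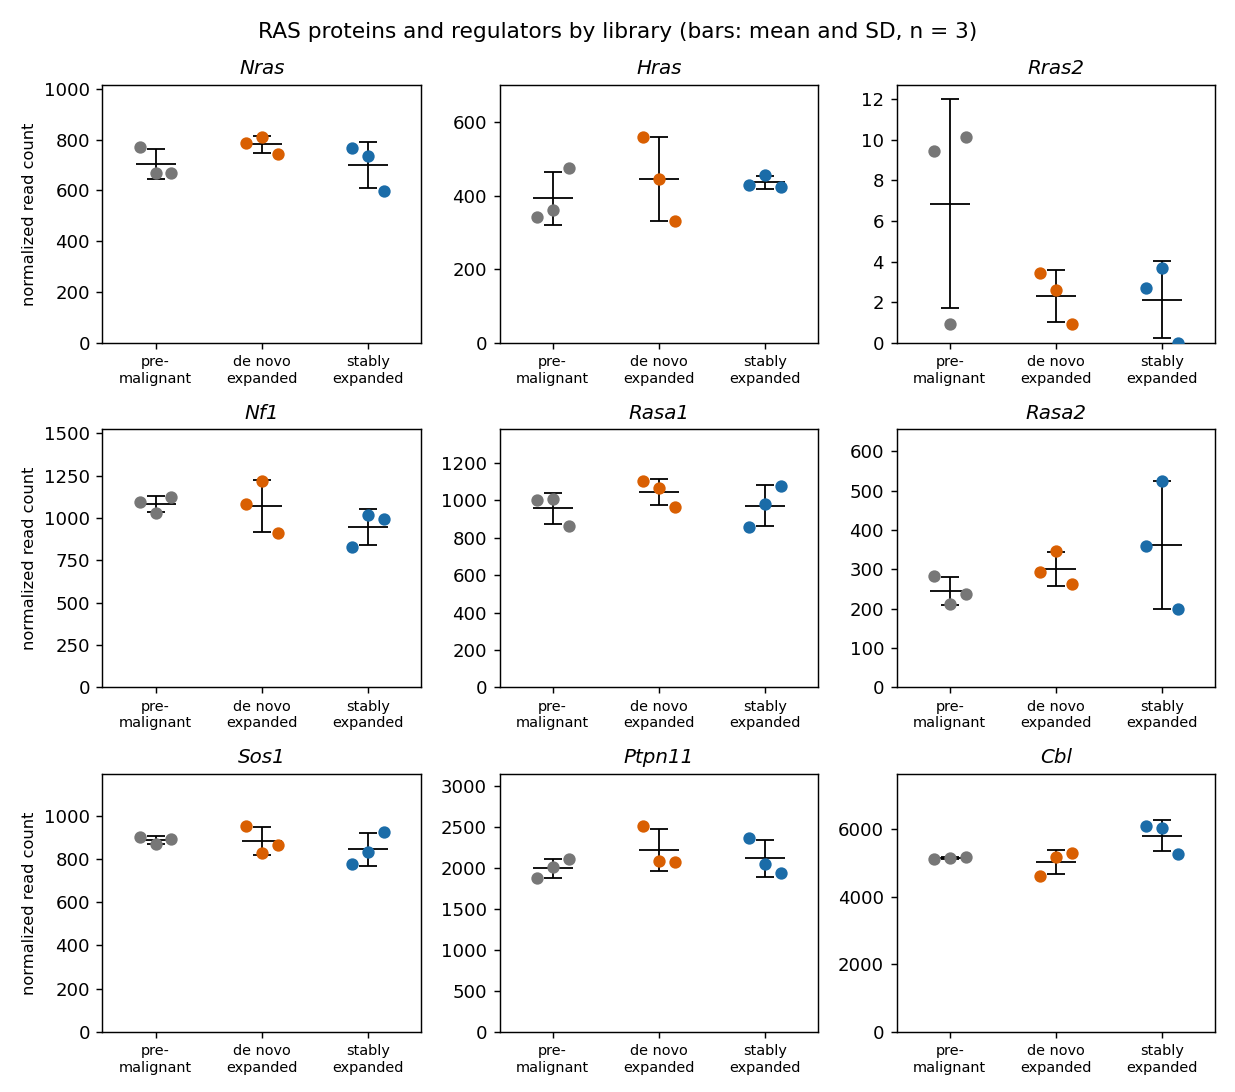
Normalized read counts of the 9 genes in each of the 9 libraries, with the mean and SD of each group (n = 3) as bars and 1 panel per gene on its own linear axis. Groups overlap for all genes except *Nf1* and *Cbl* between pre-malignant and stably expanded libraries, and *Rasa2* spreads from 199 to 524 within the stably expanded clone.

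None of the 8 tested genes was called in any comparison, where a call required an adjusted p under 0.05 and at least a 2-fold change. Over all genes, 0.0% of 14195 tested genes were called between de novo expanded and pre-malignant clones, 2.75% of 13968 between stably expanded and pre-malignant clones, and 0.00727% of 13758, a single gene, between stably and de novo expanded clones. Without de novo expanded library 3, 214 genes were called in the first and 508 in the last comparison, and none of the RAS genes was among them. At an unadjusted p under 0.05, none of the 8 genes passed in any comparison, against 11.3, 25.4 and 4.83% of all tested genes. For the comparison of de novo expanded with pre-malignant clones, in which no gene was called by limma or edgeR, DESeq2 called 62 genes, and 1597 genes had an unadjusted p under 0.05 by limma.

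The intervals bound the differences between groups only against the spread among these libraries. They hold no spread between mice for the pre-malignant group and none between clones for the stably expanded group. In the comparison of de novo expanded with pre-malignant clones, the 95% intervals of all 8 genes lay within a 2-fold change in either direction, from 0.792-fold for *Hras* to 1.67-fold for *Rasa2*. Between stably and de novo expanded clones, the 8 intervals also lay within 2-fold, with *Rasa2* extending from 0.648-fold to 1.94-fold. Between stably expanded and pre-malignant clones, 7 of 8 intervals lay within 2-fold, and that of *Rasa2* extended to 2.16-fold. These intervals are not adjusted for the number of genes. In the 3 comparisons 6, 5 and 2 of the 8 genes had a positive log2 fold change, with median log2 fold changes of 0.16, 0.05 and -0.07 beside 0.01, 0.00 and -0.00 over all tested genes. The first 2 comparisons share their pre-malignant libraries. The median size of change, regardless of direction, was 0.16, 0.12 and 0.14, beside 0.22, 0.26 and 0.18 over all tested genes.

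**Figure D3:**
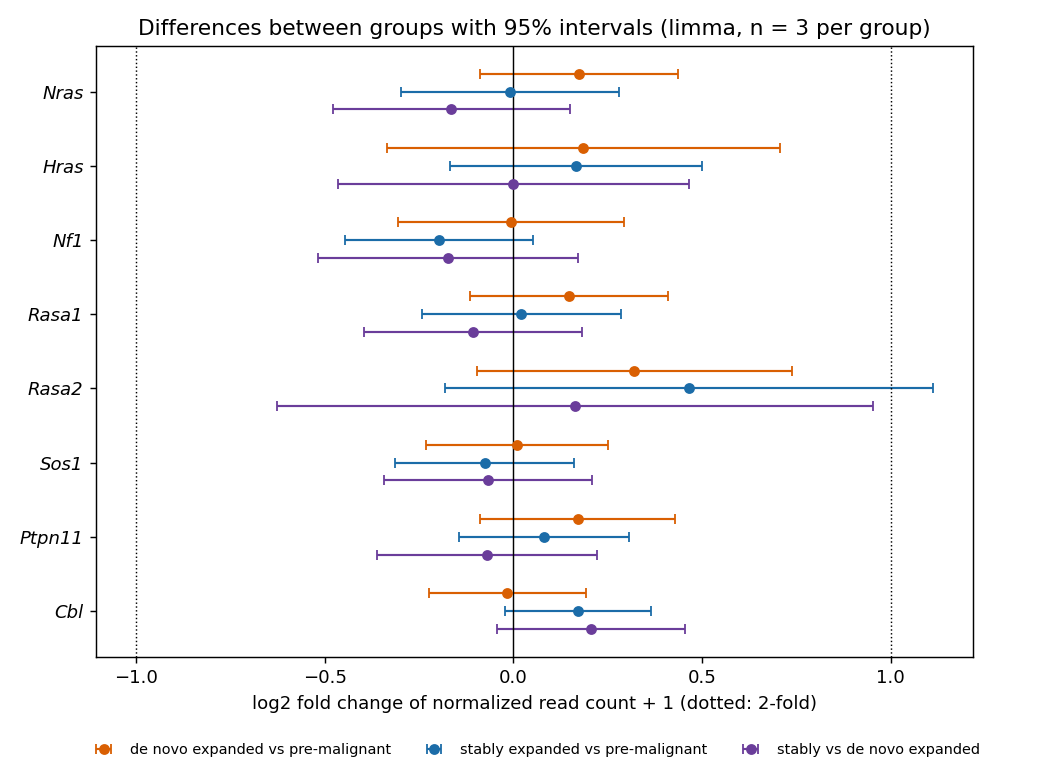
Log2 fold changes of the 8 tested genes with 95% intervals from limma (n = 3 per group) for the 3 comparisons, with dotted lines at a 2-fold change. All intervals include 0 and only that of *Rasa2* between stably expanded and pre-malignant libraries crosses a dotted line, at 1.11.

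Between stably and de novo expanded clones, the remaining genes had log2 fold changes of -0.16 ± 0.13 for *Nras*, -0.17 ± 0.15 for *Nf1*, -0.11 ± 0.12 for *Rasa1*, 0.16 ± 0.34 for *Rasa2*, -0.07 ± 0.12 for *Sos1* and -0.07 ± 0.12 for *Ptpn11*. *Hras* stood at a mean of 436 normalized reads with the stably expanded clone and 446 in de novo expanded libraries. All 8 genes overlapped between both leukemic groups. Non-overlap between stably expanded and pre-malignant libraries, seen for 2 of 8 genes, *Cbl* and *Nf1*, was also seen for 30.7% of all tested genes and is therefore near the background. For de novo expanded against pre-malignant libraries the groups of no RAS gene were separate, against 19.1% of all tested genes, and for stably against de novo expanded libraries none, against 9.61%.

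As a group, the RAS genes varied less over the 9 libraries than most genes. The SD of log2 values over all 9 libraries had a median of 0.14 over the 8 genes, against 0.31 over 13960 genes with a mean normalized read count of at least 10. *Sos1* had an SD of 0.09, and 2.22% of these genes had a smaller one. The SDs of *Cbl*, *Rasa1*, *Ptpn11*, *Nras* and *Nf1* were 0.12, 0.13, 0.13, 0.14 and 0.17. *Hras* had 0.24 and *Rasa2* 0.43, the only value above the median. Weakly expressed genes vary more, so each gene was also set beside the genes within a 2-fold range of its own mean level. There, 3.79% of 3959 genes had a smaller SD than *Sos1*, 18.7% than *Rasa1*, 21.6% than *Nras*, 25.1% than *Cbl*, 27.7% than *Ptpn11*, 38.8% than *Nf1*, 58.4% than *Hras* and 84.3% than *Rasa2*. *Sos1* and *Rasa2* thus remained at the ends of the order. The others ran from 18.7 to 58.4%, and all of them except *Hras* lay on the less variable side. Counting error alone would give an SD of 0.02 for *Cbl* to 0.08 for *Rasa2*, below the measured SD of each gene.

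**Figure D4:**
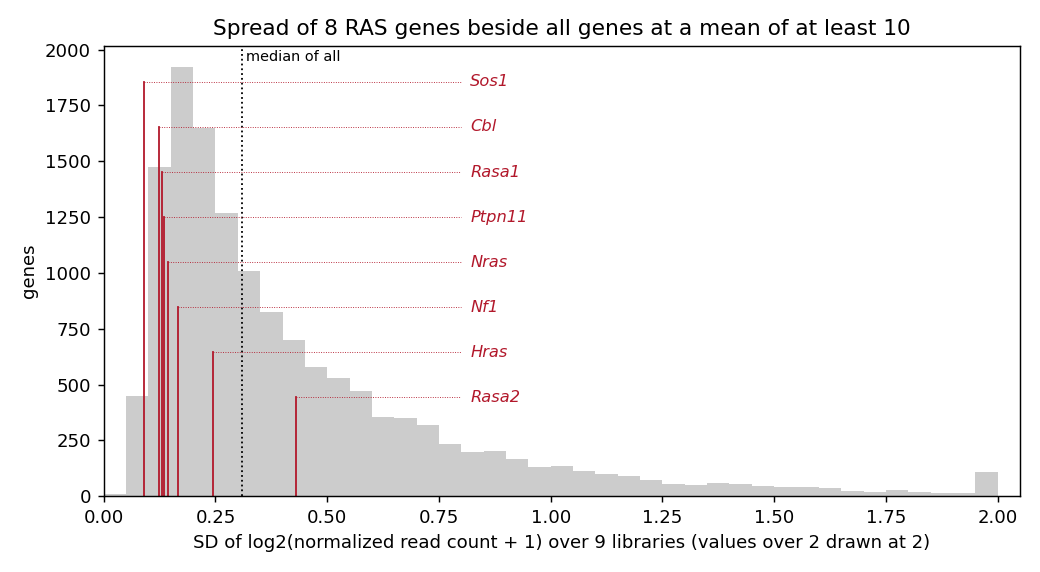
Number of genes (y axis) by SD of log2(normalized read count + 1) over the 9 libraries (x axis) for 13960 genes, with the 8 RAS genes marked by red lines. All but *Rasa2*, at 0.43, lie left of the dotted median of 0.31.

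The RAS genes did not follow a common pattern over the libraries. Of 28 pairs among the 8 genes, 15 had a positive and 13 a negative Pearson correlation of log2 values over the 9 libraries, with a median of 0.07. The highest was 0.67 for *Hras* and *Ptpn11*, followed by 0.65 for *Nras* and *Rasa2*. The lowest was -0.82 for *Sos1* and *Cbl*. These values describe 9 libraries that share groups and size factors. The closest genes were sought among 10334 or 10335 others with a mean of at least 50. Over 9 libraries, high values can arise by chance in such a search. Those closest to *Nras* were *Nup155*, a nuclear pore component, with r = 0.951, *Mzt1*, a component of the gamma-tubulin complex, with 0.925, and the mitochondrial ribosomal gene *Mrpl55* with 0.912. For *Rasa2* they were *Acp1* with 0.902, *Fancl* with 0.899 and *Rnf7* with 0.893. For *Rras2*, whose log2 values had the largest SD, at 1.14, they were *Fam129a*, *Ripk2* and *Gpr19* with 0.938, 0.933 and 0.917, which rest on 0 to 11 *Rras2* reads. The ratio of *Sos1* to *Nf1* reads was 0.823 ± 0.0245 in pre-malignant, 0.84 ± 0.141 in de novo expanded libraries, and 0.896 ± 0.0666 with the stably expanded clone, with overlapping ranges.

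Neighboring genes can share reads with the RAS genes, since the strand setting of the counting is not given in the sources used here. In the GRCm38.p6 annotation, *Nras* (ENSMUSG00000027852.14, chr3:103058285-103067914, plus strand) overlaps no other annotated gene. *Hras* (ENSMUSG00000025499.18, chr7:141189105-141194005, minus strand) lies 151 bases from *Lrrc56*, which had 52.4 to 76.7 normalized reads. The span of *Nf1* (ENSMUSG00000020716.16, chr11:79339693-79581612, plus strand) encloses *Evi2* with 37.6 to 94.6 and *Evi2a* with 109 to 209 normalized reads, along with *Omg*, which stayed at or under 11.1, all on the other strand and without shared exon bases. *Rasa1* (ENSMUSG00000021549.14, chr13:85214780-85289130, minus strand) shares 12 exon bases with *Ccnh* on the other strand, the only shared exon bases among the 21 neighboring genes. *Ptpn11* (ENSMUSG00000043733.14, chr5:121130533-121191397, minus strand) encloses Gm42930 with 5.37 to 52.5 normalized reads, and *Cbl* (ENSMUSG00000034342.9, chr9:44142976-44234049, minus strand) encloses 5830462O15Rik with 53.6 to 99.8, both on the same strand. *Sos1* (ENSMUSG00000024241.7, chr17:80393751-80480453, minus strand) overlaps *Arhgef33*, which stayed at or under 10.2. None of the 7 neighbors with a mean of at least 10 was called in any comparison.

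The wider pathway was covered by 88 further genes in 7 lists. In the comparison of stably expanded with pre-malignant clones, 2 of 77 tested pathway genes were called lower and none higher. This share was close to the 2.75% of all tested genes. *Rasa4*, which encodes the calcium-dependent GTPase-activating protein CAPRI, had 1807, 2067 and 2377 normalized reads in pre-malignant, 1706, 1917 and 138 in de novo expanded libraries, while the stably expanded clone had 306, 853 and 586. The stably expanded values lay far below the pre-malignant ones, and de novo expanded library 3 was lower still while the other two resembled the pre-malignant libraries. The log2 fold change of the stably expanded clone was -1.95 ± 0.29 with an adjusted p of 0.00544 by limma. It was called in 14 of 16 alternative settings, but not in 1 fit of all 9 libraries, with an adjusted p of 0.248, or with the olfactory and vomeronasal share as covariate, with 0.356. Between stably and de novo expanded clones it was not called, at -0.52 ± 0.97, but without de novo expanded library 3 the value was -1.75 with an adjusted p of 0.0174 by limma.

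*Phlda1*, an ERK-responsive gene, had 74.6, 52.1 and 57.3 normalized reads in pre-malignant, 9.12, 19.2 and 31.6 in de novo expanded libraries, while the stably expanded clone had 15.4, 17.4 and 14.8. All leukemic values lay below all pre-malignant values. Its log2 fold change was -1.87 ± 0.36 (adjusted p = 0.0132) with the stably expanded clone and -1.69 ± 0.47 (adjusted p = 0.380) with de novo expanded clones by limma, so only the former was called. The former was called in 12 of 15 alternative settings, and a filter at a mean of at least 50 left *Phlda1* untested. The call was lost in 1 fit of all 9 libraries (adjusted p = 0.0894) and without pre-malignant library 1 (0.0630). It was also lost with the olfactory and vomeronasal share as covariate (0.413). Without de novo expanded library 3 the difference with de novo expanded clones was called as well, at -2.10 with an adjusted p of 0.0298. The B cell and erythroid marker sums and this share also reached their highest values in pre-malignant libraries, the platelet sum was higher there than with the stably expanded clone, and their part in these results was not tested beyond that covariate.

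A further 5 pathway genes passed the adjusted p of 0.05 in the stably expanded clone without reaching 2-fold, so that 7 of 77 passed, a share near the 7.95% of all tested genes. *Gab2* and *Frs2*, adaptors that link receptors to SHP2 and GRB2, were lower by 0.69 and 0.47 on the log2 scale (limma adjusted p = 0.0130 and 0.0351). *Pik3cd*, the leukocyte PI3-kinase catalytic subunit, was lower by 0.52 (adjusted p = 0.00877), at 3276 ± 183 against 4717 ± 301 normalized reads (SD, n = 3). *Rasgrp2*, an exchange factor that acts mainly on RAP1, and *Ralb*, a RAS-family GTPase, were higher by 0.50 and 0.44 (adjusted p = 0.0322 and 0.0325). De novo expanded clones differed from pre-malignant clones by -0.44 ± 0.15 for *Gab2*, -0.30 ± 0.10 for *Frs2*, 0.46 ± 0.21 for *Rasgrp2* and 0.10 ± 0.19 for *Ralb*. The adjusted p-values by limma were 0.400, 0.389, 0.456 and 0.879. *Gab2* and *Frs2* were lower, and *Rasgrp2* higher, in all leukemic than in all pre-malignant libraries. Non-overlap of de novo expanded and pre-malignant libraries was seen for 19.1% of all tested genes. In de novo expanded libraries *Pik3cd* had 3113, 3469 and 3181 normalized reads, close to the stably expanded 3372, 3392 and 3065 and apart from the pre-malignant 4466, 4633 and 5051. Against pre-malignant clones, its log2 fold change was -0.52 ± 0.09 in both leukemic groups, with an adjusted p of 0.320 for de novo expanded clones by limma. The latter passed in 2 of 16 alternative settings, with 0.0220 without de novo expanded library 3 by limma and 0.00260 by DESeq2, and ranged up to 0.927 with the olfactory and vomeronasal share as covariate. For the stably expanded clone, none of the 5 genes passed in every setting. In 1 fit of all 9 libraries their adjusted p-values were 0.0729 to 0.203, and with the olfactory and vomeronasal share as covariate 0.226 to 0.701, by limma. With libraries left out in turn, *Pik3cd* passed in 6 of 6 fits and *Gab2* in 5, with 0.0510 without pre-malignant library 1. *Frs2*, *Ralb* and *Rasgrp2* passed in 1 of 6, only without stably expanded library 2, and otherwise reached up to 0.120, 0.122 and 0.107.

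**Figure D5:**
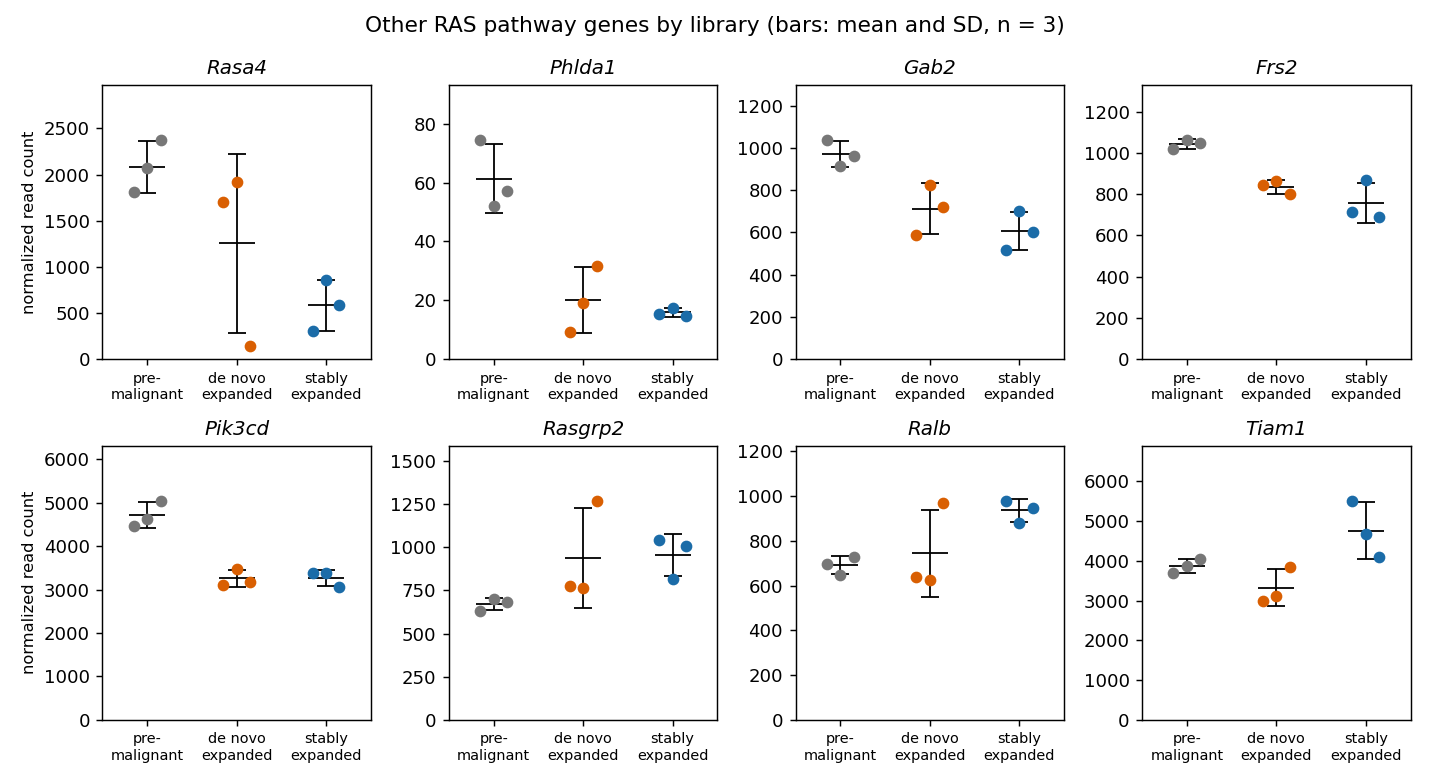
Normalized read counts of 8 other RAS pathway genes in each library, with the mean and SD of each group (n = 3) as bars. *Rasa4* lies at 1807 to 2377 in pre-malignant and 306 to 853 in stably expanded libraries, with 138 in de novo expanded library 3. *Phlda1*, *Gab2*, *Frs2* and *Pik3cd* are lower, and *Rasgrp2* higher, in all leukemic than in all pre-malignant libraries.

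By list, the other GTPase-activating proteins lay lower in the stably expanded clone than in pre-malignant clones for 8 of 8 tested genes. Of these, 1 was called, where 2.75% of all tested genes were called. Their median log2 fold change was -0.41 beside 0.00 over all tested genes. The ERK output genes lay lower for 9 of 10 tested genes, with 1 called and a median of -0.96. The lipid modification and trafficking genes, which include the farnesyltransferase subunit *Fnta* and the depalmitoylases of the ABHD17 family, lay higher for 9 of 11 tested genes with none called and a median of 0.21. The RAS-family GTPases, exchange factors, adaptors and effectors had medians of -0.01, 0.07, -0.05 and -0.09, with none called. In the comparison of de novo expanded with pre-malignant clones no gene of any list was called. There, the lipid modification and trafficking genes lay higher for 10 of 11 tested genes, with a median of 0.20. The other GTPase-activating proteins lay lower for 5 of 8, with a median of -0.30, and the ERK output genes for 7 of 10, with -0.29. In that comparison, the smallest unadjusted p-values among lower genes belonged to *Pik3cd*, *Rasal3* (-0.57 ± 0.15) and *Phlda1*. Among higher genes they belonged to *Rasgrp2* (0.46 ± 0.21), *Fnta* (0.31 ± 0.15) and *Rasgrf2* (0.38 ± 0.19). The adjusted p-values of all these genes ran from 0.320 to 0.485 by limma. *Rasa4* stood at -1.41 ± 0.91, with an adjusted p of 0.575 by limma. Between stably and de novo expanded clones none of 76 tested pathway genes was called. The other GTPase-activating proteins lay lower for 6 of 8 tested genes, with a median of -0.59, and the ERK output genes for 8 of 9, with -0.16. The lipid modification and trafficking genes lay higher for 6 of 11, with a median of 0.05. No list was tested as a set. The smallest unadjusted p-values belonged to *Tiam1* (0.52 ± 0.15), *Abhd17a* (0.26 ± 0.11) and *Abhd17c* (0.37 ± 0.16) among higher genes, and *Dab2ip* (-1.62 ± 0.56), *Rin1* (-1.06 ± 0.42) and *Rhebl1* (-0.83 ± 0.39) among lower genes, each with a limma adjusted p of 0.891. *Abhd17c* was also among the higher genes against pre-malignant clones, at 0.45 ± 0.13 with an adjusted p of 0.0656.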

How the data were processed

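RNA-Seq libraries were prepared from sorted splenocytes with a stranded total RNA kit and sequenced in 1 run. The submitters' processing notes list bcl2fastq, Trim Galore 0.6.4, STAR 2.6.1d, featureCounts 1.6.4, DESeq2 and GRCm38.p6, and the study's methods name GENCODE annotation. The authors deposited 1 table per comparison with a signal per library, read counts that were scaled by DESeq2 size factors of the 6 libraries compared. The deposited fold changes on the log2 scale, their standard errors, the Wald statistic, a score of the authors' test, and the deposited p-values were the authors' own comparison and were not used. Whole reads were recovered for 100.0% of nonzero values, to within 0.05 reads, and gave the levels scaled over 9 libraries, RPKM and the count tests. Reads on genes numbered 10379739 to 15551196 per library, and a count of 0 allows up to 3 reads, for counting error only.

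Groups followed the labels. The test was limma 3.58.1 with eBayes and its trend option on log2(normalized read count + 1) in R 4.3.3, two-sided, in genes with a mean of at least 10 over the 6 libraries, with Benjamini-Hochberg adjustment over all genes tested. It was tested on simulated data. Alternatives were pseudocounts of 0.1 and 5, no filter, a mean of at least 50, centring on the median, quantile normalization, 1 fit of all 9 libraries, edgeR 4.0.16, DESeq2 1.42.0, the olfactory and vomeronasal share as covariate, no fold limit, leaving out each library and the longest transcript of an older annotation as length. Python 3.11.15 with pandas 2.3.3, numpy 2.4.6 and matplotlib 3.10.9 made tables and figures. Promoters are from RefSeq (GRCm38.p6), with all 9 genes matched.

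The 9 genes and all lists were chosen with earlier results of these data known. Beside the 9 genes, those named are, per comparison, the pathway genes called and the 3 higher and 3 lower with the smallest unadjusted p, genes overlapping or within 5 kb of the 9, and the 3 most correlated with *Nras* and with the gene of largest SD. *Frs2* and the genes most like *Rasa2* were named after their values were seen. Some details of the cells and of neighboring genes are not reported here.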

Additional observations from a re-analysis of the deposited data

Results flagged for a closer look

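*Tiam1*, which encodes an exchange factor for RAC that binds RAS, lay on opposite sides of the pre-malignant mean in the leukemic groups. It had 3694, 3880.0 and 4035 normalized reads in pre-malignant libraries, 2998, 3124 and 3856 in de novo expanded libraries, all below the pre-malignant mean, and 5517, 4671 and 4098 in stably expanded libraries, all above it. The log2 fold change between stably and de novo expanded clones was 0.52 ± 0.15 with an unadjusted p of 0.00950 and an adjusted p of 0.891 by limma, so the difference did not pass the correction over all genes. None of the 8 tested RAS genes showed such a split. Groups of 3 were not checked for outlying samples.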

How the results depend on the processing

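None of the 8 tested RAS genes was called in any comparison under any alternative. Of 384 alternative fold changes of these genes, 360 kept their direction and 24 turned, all 24 for changes of at most 0.17 in the log2 fold change reported. Between de novo expanded and pre-malignant clones *Sos1* turned from 0.01 to -0.018 with quantile normalization, -0.019 with centring on the median, -0.0097 in 1 fit of 9 libraries, -0.0046 with edgeR and -0.0019 with DESeq2. Between stably expanded and pre-malignant clones *Rasa1* turned to -0.016 with quantile normalization, and with the olfactory and vomeronasal share as covariate *Hras* turned to -0.092 and *Ptpn11* to -0.067. Between stably and de novo expanded clones *Hras* turned to 0.078 with this covariate. With libraries left out in turn, the ranges were -0.10 to 0.10 for *Nf1*, -0.045 to 0.055 for *Sos1* and -0.060 to 0.047 for *Cbl* between de novo expanded and pre-malignant clones, -0.078 to 0.10 for *Nras* and -0.055 to 0.11 for *Rasa1* between stably expanded and pre-malignant clones, and -0.20 to 0.18 for *Hras*, -0.16 to 0.54 for *Rasa2* and -0.15 to 0.020 for *Ptpn11* between stably and de novo expanded clones.

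Counts over all genes depended more on the setting. Between de novo expanded and pre-malignant clones, 5 genes were called without a filter, 5 in 1 fit of 9 libraries and 62 with DESeq2, and 0 to 214 with libraries left out. Between stably expanded and pre-malignant clones, 384 genes were called, against 6 in 1 fit of 9 libraries, 5 with the covariate, 1110 without a fold limit and 206 to 452 with libraries left out. Between stably and de novo expanded clones, 2 genes were called without a filter, 2 in 1 fit of 9 libraries, 32 with DESeq2, 0 with the covariate and 0 to 508 with libraries left out. The cause was not tested. Under the longest transcript of each gene, *Rasa1* at 14.2 RPKM passed *Nras* at 12.04, and the order of the others was kept. No paired analysis was possible because the labels tie no column to a clone or mouse.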
